A study of Homo sapiens with 8 samples.

Results

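The comparison described here set erAlec0, a derivative of the lung adenocarcinoma line H3122 with evolved resistance to alectinib, against treatment-naive H3122, for RNA and for H3K27ac. Genes were members if the highest value among the 4 lines with values was at least 4.64, the log2 of 25 reads, and peaks if it was at least 3.91, the log2 of 15 reads. This gave 12701 of 43869 genes, of which 11576 were protein coding and 649 long noncoding, and 86432 of 126470 H3K27ac peaks. A change is the value of erAlec0 minus that of naive cells on a log2 scale, so that 1 is a 2-fold difference. Genes and peaks at 1 or more, or at -1 or less, were counted as up or down, and "rose" and "fell" are used only of these. With 1 library of each kind per line there was no replicate check and no test, and p-values are not given.

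H3122 carries the EML4-ALK fusion. The fusion joins the oligomerizing part of EML4 to the kinase part of ALK, which makes the kinase active without a ligand and feeds the RAS-ERK, PI3K and STAT3 pathways on which the growth of such cells depends. Alectinib blocks the kinase by occupying its ATP pocket, and after ERK is switched off, its feedback genes and the genes of S phase entry usually go down. Acetylation of histone H3 at lysine 27 marks active promoters and enhancers.

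Both lines derive from 1 established cell line and were grown in RPMI with 10% serum, with DMSO as the vehicle. Resistant cells had been selected under stepwise increased alectinib and were kept in 2 μM of the drug. RNA was taken after a period without inhibitor, so the RNA values are not those of cells under treatment. The ChIP-seq methods state no such period, so the drug status behind the H3K27ac values is not known. RNA and H3K27ac may thus differ in drug exposure, which was not tested. Values for erCriz0 and erLor0, the lines resistant to crizotinib and to lorlatinib, were set beside those of erAlec0 for reference. All 3 comparisons share the 1 naive library. Values are rlog values, in which differences of features with few reads are drawn toward 0. Levels of different genes are not compared, because rlog values are not scaled by gene length.

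The labelled cell type was checked against its markers. Of 12 lung adenocarcinoma markers 10 were members, among them NKX2-1, the lung lineage factor, at 8.68 in naive and 9.13 in erAlec0 cells, and KRT7 at 13.93 and 14.62. Of 16 fibroblast, endothelial and blood cell markers 14 were in the table and 2 were members, CDH5 at 4.10 and 5.78 and COL1A1 at 9.49 and 9.99. As a check of the column labels, values centred over the 4 lines were compared across 1590 pairs of a gene and its promoter peak. RNA of erAlec0 was closest to H3K27ac of erAlec0, with a Pearson r of 0.20 across pairs, against 0.08 with naive, -0.02 with erLor0 and -0.23 with erCriz0. RNA of naive cells was also closest to H3K27ac of naive cells, but with an r of only 0.09, so this check is weak for the naive columns. In erCriz0 and erLor0 the r of RNA with H3K27ac of the same line was higher, at 0.47 and 0.52.

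In RNA, 312 of 12701 members were up, which is 2.46%, and 263 were down, which is 2.07%. These shares over all members are the reference for the counts of each gene list below. The middle 95% of changes lay between -0.94 and 0.99, and the median was 0.00. Among up genes 42 lay below the minimum in naive cells, and among down genes 22 lay below it in erAlec0, so a member could pass through its higher side alone.

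**Figure D1:**
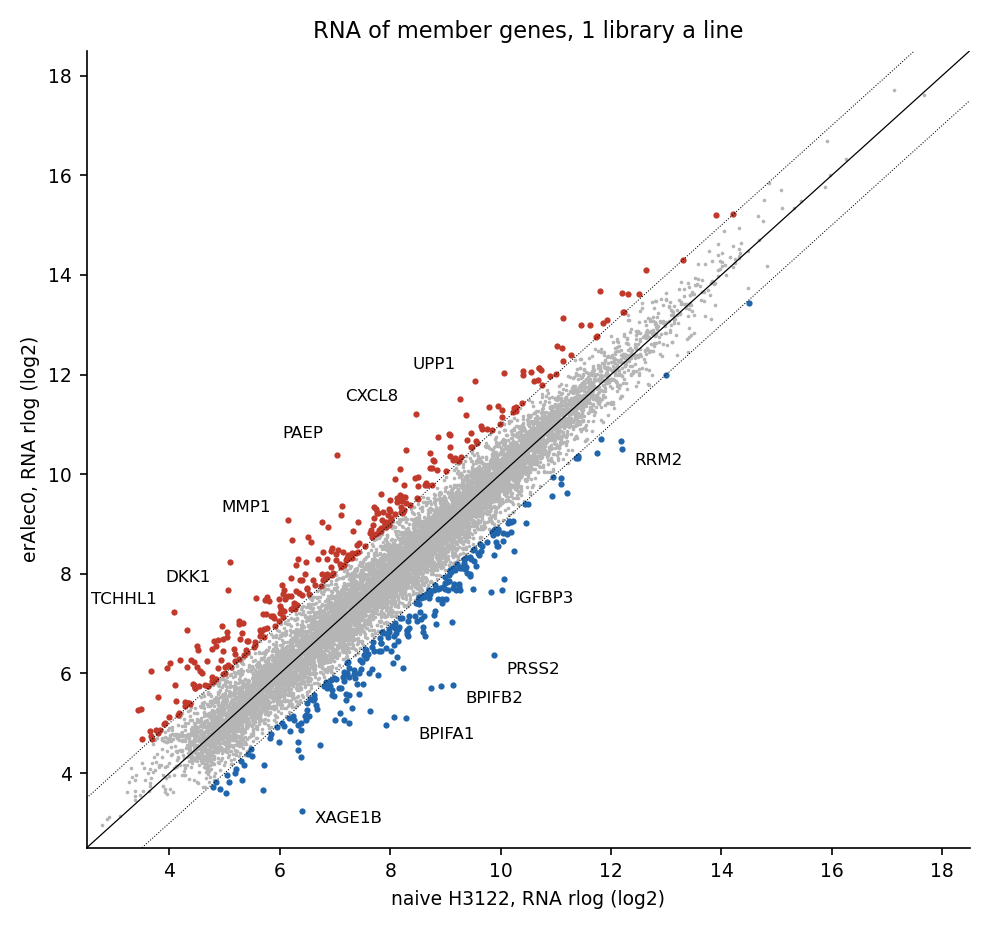
RNA rlog (log2) of naive H3122 on the x axis and of erAlec0 on the y axis, 1 point per member gene, with up genes in red, down genes in blue and the other genes in grey. The solid line marks equal values and the dotted lines a change of 1 either way, and labelled genes such as PRSS2 and PAEP lie furthest from the diagonal.

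Cell cycle genes were lower in erAlec0. Of 38 cell cycle and proliferation genes, all of them members, 18 fell, 0 rose and all 38 were below their naive value, with a median change of -0.97 against 0.00 over all members. Of 54 DNA replication and G1/S genes, a list added after the first results were seen, 29 fell and all 54 were lower, with a median of -1.05. This list shares genes with the first, PCNA among them, so their counts overlap. Of 44 mitosis genes, also added after the first results were seen, 8 fell, 43 were lower and the median was -0.77. Of 28 replication-dependent histone genes, which are transcribed in S phase, 10 fell and the median was -0.74, with H3C1 at -1.78. In erCriz0 10 of these histone genes fell and the median was -0.91, and in erLor0 8 fell and it was -0.69. In bulk RNA, fewer cycling cells and less RNA per cell cannot be told apart.

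PCNA, the sliding clamp of DNA polymerase, stood at 9.50 in naive and 7.69 in erAlec0 cells, a fall of -1.81, and at 8.52 in erCriz0 and 8.34 in erLor0. RRM2, a subunit of the reductase that makes deoxyribonucleotides, went from 12.20 to 10.51, against 11.20 and 11.35. E2F1, an activator of S phase genes, went from 7.40 to 5.79, against 6.03 and 6.79. CCNE2, a cyclin of the G1/S transition, stood at 7.62 in naive and 6.01 in erAlec0 cells, with 7.51 in erCriz0 and 6.82 in erLor0. In all 4 genes erAlec0 had the lowest value of the 4 lines. The helicase subunits MCM4 (-1.58), MCM6 (-1.38), MCM3 (-1.32), MCM2 (-1.24) and MCM5 (-1.19) fell as well, and MCM7 was at -0.55. The proliferation antigen MKI67 was at -0.80, from 13.19 to 12.39, and cyclin D1, CCND1, was at 15.32 and 15.34. Of the 4 members among cell cycle inhibitors, 0 passed the limit, with CDKN1A at 0.27 and CDKN1C at 0.62. In erCriz0 4 of the 38 genes fell and the median was -0.55, and in erLor0 1 fell and the median was -0.59.

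Promoter H3K27ac of these genes lay mostly on the other side of 0 from their RNA. A promoter peak is a member peak within 1 kb of the gene's start, and where a gene had several the median was used. All 38 cell cycle genes had one, 36 were above their naive value, the median promoter change was 0.67, 12 were at 1 or more and 0 at -1 or less. Over all 11253 member genes with a promoter peak the median was 0.25, with 6.17% at 1 or more and 1.03% at -1 or less. Most promoters were above naive in any case, 73.7% over all these genes and 70.4% at down genes. Median promoter changes were higher in shorter promoter peaks, while falls of -1 or less were most frequent at 5000 bases or more, at 2.76%. The median length in the cell cycle list was 2107 bases. Genes whose longest promoter peak was 2000 to 3000 bases had a median of 0.27 with 4.21% at 1 or more, against 31.6% of the list. Those of 1000 to 2000 bases, nearer to the list in median H3K27ac level (7.11 against 7.34), had 0.34 and 8.77%. MKI67 had a promoter change of 1.84, E2F8, a repressor of the E2F family, 1.95 with RNA at -1.20, and TYMS, thymidylate synthase, 1.32 with RNA at -1.44. The genes below 0 were E2F2, at -0.41 with RNA at -1.67, and BUB1B, at -0.07 with RNA at -0.97.

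The promoters of these genes are shown because E2F factors act through a site near the start. The letters TTTNNCGC, which cover common E2F sites, were searched on both strands in the 250 bases before the RefSeq start, a search added after the RNA values were seen. They stood in 18 of 44 promoters of the replication and G1/S list that were in the table, 40.9%, and in 3 of 37 of the mitosis list, 8.11%. Of all 27305 promoters 5.93% had them, of 9858 member genes 9.15%, of 203 down genes 15.8% and of 216 up genes 6.02%. In the 3 examples the matches are in capitals (RefSeq, GRCh38.p14, all from the minus strand and written 5′ to 3′). E2F1 is at chr20:33686386-33686635, PCNA at chr20:5126623-5126872 and LIG1, a DNA ligase whose RNA fell by 1.67, at chr19:48170345-48170594.
E2F1: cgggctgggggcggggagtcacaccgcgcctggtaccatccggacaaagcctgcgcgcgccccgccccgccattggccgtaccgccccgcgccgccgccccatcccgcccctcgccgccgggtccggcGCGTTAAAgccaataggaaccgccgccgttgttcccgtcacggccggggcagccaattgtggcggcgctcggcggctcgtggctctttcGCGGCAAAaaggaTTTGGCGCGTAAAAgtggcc
PCNA: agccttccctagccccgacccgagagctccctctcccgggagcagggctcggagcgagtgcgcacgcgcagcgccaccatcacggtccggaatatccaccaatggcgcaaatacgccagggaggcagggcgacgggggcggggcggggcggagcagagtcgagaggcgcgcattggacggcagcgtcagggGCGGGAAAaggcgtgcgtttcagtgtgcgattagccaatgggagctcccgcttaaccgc
LIG1: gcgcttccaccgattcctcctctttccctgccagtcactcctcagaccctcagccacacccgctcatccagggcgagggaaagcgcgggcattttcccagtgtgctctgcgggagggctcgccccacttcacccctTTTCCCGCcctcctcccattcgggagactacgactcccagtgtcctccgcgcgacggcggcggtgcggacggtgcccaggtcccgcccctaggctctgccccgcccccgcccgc
The E2F1 promoter held 4 overlapping or separate matches, and the other promoters held 1 each.

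Genes of the alveolar and airway secretory list made up much of the deepest loss. Of its 27 members 8 fell and 4 rose, 29.6% and 14.8% against 2.07% and 2.46% of all members. The list was split, with 15 members above naive and a median of 0.16. All 8 genes that fell encode secreted proteins. BPIFB2, BPIFA1, BPIFA2 and BPIFB1, which belong to a family of lipid-binding proteins of airway and oral fluids, lie together on chromosome 20. BPIFA1 was at 8.29 in naive and 5.11 in erAlec0 cells, a change of -3.18, and at 9.03 in erCriz0 and 5.26 in erLor0, so that erAlec0 and erLor0 were low and erCriz0 was above naive. BPIFB2 went from 9.13 to 5.77, against 6.65 in erCriz0 and 5.69 in erLor0. BPIFA2 had a change of -3.17 and BPIFB1 one of -2.19. The trypsinogens PRSS2, at 9.88 and 6.37, and PRSS1, at 8.74 and 5.71, are near-identical copies whose reads can be hard to assign, and their changes of -3.51 and -3.04 are uncertain for that reason. WFDC2, a protease inhibitor, fell by 1.24 and SCGB3A1, a secretoglobin, by 1.09.

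In the opposite direction, HOPX, a homeodomain protein of alveolar type 1 cells, rose by 1.99, from 4.96 to 6.95, with 7.37 in erLor0 and 4.70 in erCriz0. MUC1, a membrane mucin, rose by 1.71, LAMP3, a lamellar body protein, by 1.07 and SLC34A2, a phosphate transporter of type 2 cells, by 1.07. SLC34A2 was at 11.92 in erCriz0 against 7.37 in erAlec0. The gel-forming mucin MUC5AC was at 12.80 and 13.47 while its promoter peaks were at -1.86.

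BPIFB2 (ENSG00000078898.7, chr20:33007704-33023703, hg38) was the gene with the deepest paired loss. Its promoter peak was at -2.34, and both of its 2 paired peaks were down. BPIFA1 had a promoter change of -0.95 and BPIFA2 of -0.87, with 4 of 9 paired peaks down. Over the 23 genes of the list with a promoter peak, the median promoter change was -0.47, 5 were at -1 or less and 2 at 1 or more. The 250 bases before the start of BPIFB2 (plus strand, chr20:33007454-33007703) are given because H3K27ac was lost there, and they held neither the E2F letters above nor the AP-1 letters TGANTCA.
BPIFB2: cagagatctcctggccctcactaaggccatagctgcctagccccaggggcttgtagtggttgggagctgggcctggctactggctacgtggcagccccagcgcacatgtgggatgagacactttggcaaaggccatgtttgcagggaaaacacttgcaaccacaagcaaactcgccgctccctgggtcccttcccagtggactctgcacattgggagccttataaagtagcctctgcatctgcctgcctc
The 5 Mb of chromosome 20 around these genes, from 30 to 35 Mb, held 40 member genes with a median RNA change of -0.31 and 265 peaks with a median of -0.11. Of the 40 genes 7 were down, and these included BPIFB2, BPIFA1, BPIFA2 and BPIFB1 themselves and E2F1. Over all members 2.07% were down.

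**Figure D2:**
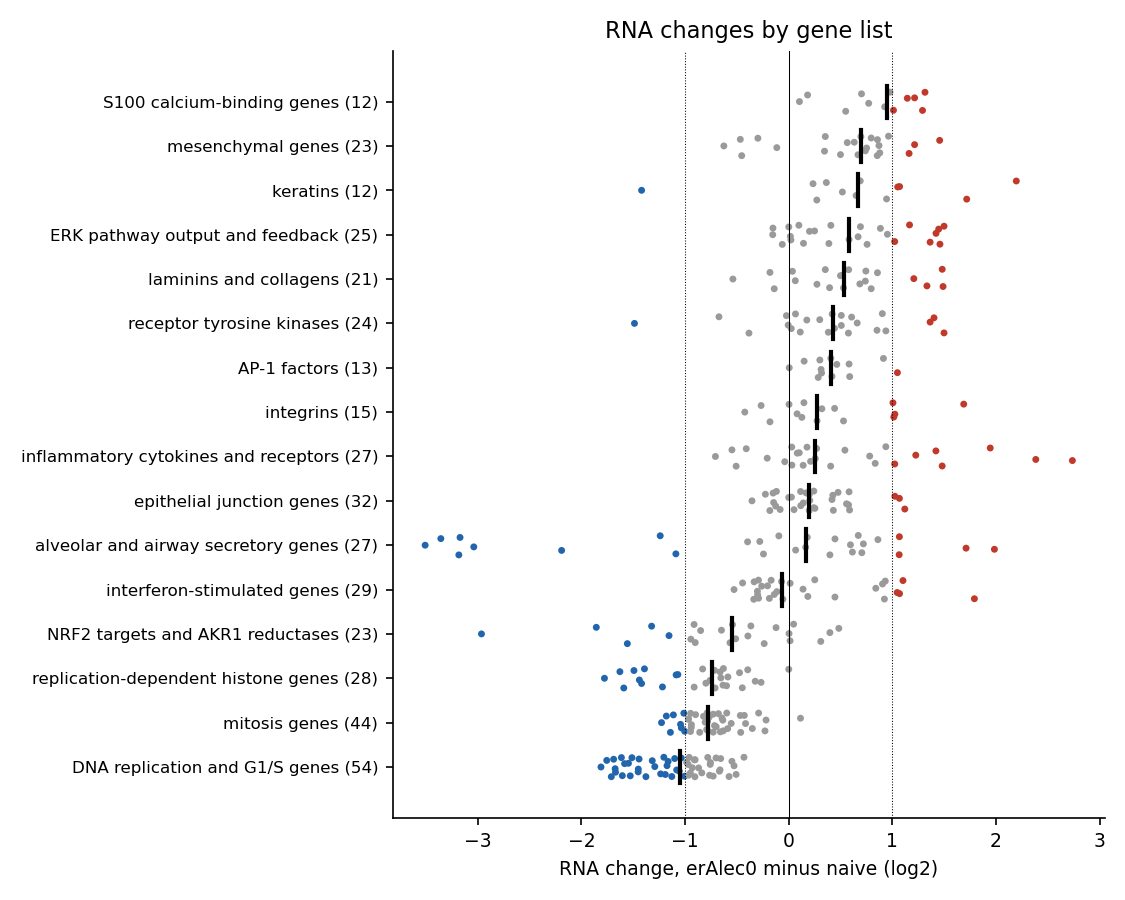
RNA changes (log2, erAlec0 minus naive, x axis) of the members of 16 gene lists, 1 point per gene and the number of members in parentheses, with points at 1 or more in red, at -1 or less in blue and the list median as a black bar. Medians run from -1.05 in DNA replication and G1/S genes to 0.95 in S100 genes, and the secretory list spreads from -3.51 to 1.99.

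Genes downstream of ERK lay on the opposite side from the cell cycle. Of 25 members of the ERK output and feedback list 7 rose, 28% against 2.46% of all members, and 0 fell. The median was 0.58. The median in erCriz0 was 0.06 and that in erLor0 0.34. DUSP6, the phosphatase that removes phosphate from ERK, was at 11.86 in naive and 13.03 in erAlec0 cells, with 12.65 in erCriz0 and 12.58 in erLor0. DUSP5, a nuclear phosphatase of ERK, went from 10.69 to 12.13, against 11.17 and 11.61. EPHA2, an ephrin receptor, went from 10.55 to 12.05, against 10.91 and 11.29. In each of these genes erAlec0 had the highest value of the 4 lines. KLF6 (1.46), PHLDA2 (1.42), EPHA4 (1.37) and IL1RAP (1.02) were the others that rose. The classic immediate-early and feedback genes EGR1 (-0.15), SPRY2 (0.00), DUSP4 (0.02) and ETV5 (-0.06) stayed within 0.2 of naive.

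Here too the medians of promoter H3K27ac and RNA differed in sign, though KLF6 was at 0.34 and EPHA4 at 0.05 in promoter H3K27ac. Of 23 ERK output genes with a promoter peak 4 were at -1 or less and 0 at 1 or more, with a median of -0.32. Their longest promoter peaks had a median of 5411 bases, and of all genes with one of 5000 bases or more 2.76% were at -1 or less, with a median of 0.07. PHLDA1 was at -1.31 with an RNA change of 0.76, SPRY4 at -1.24 with 0.67, DUSP5 at -1.15 with 1.45 and MAFF at -1.04 with 0.58. All 13 members of the AP-1 list were above their naive RNA value, with a median of 0.41, but only MAFK, a small MAF protein, rose, by 1.05. ATF3 was at 0.91, FOS at 0.30 and JUN at 0.29.

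Of 24 receptor tyrosine kinases that were members, 3 rose and 1 fell, 12.5% and 4.17% against 2.46% and 2.07% of all members. Their median was 0.43. ALK itself was at 8.18 in naive and 9.58 in erAlec0 cells, a rise of 1.40, and at 10.65 in erCriz0 and 8.10 in erLor0. No member peak lay within 1 kb of its annotated start. Of 35 peaks paired with ALK 8 were up and 1 down, with a median of 0.13. Of all member peaks 15.5% were up and 9.99% down. EML4, whose promoter drives the fusion, was at 12.30 and 12.62. The ALK value does not separate fusion from normal transcripts. EPHA4 rose by 1.37, and ROR1, an orphan receptor for WNT ligands, fell from 9.44 to 7.95, with 7 of 19 paired peaks down and 0 up. FGFR1 (0.90), AXL (0.94), EGFR (0.85) and ERBB2 (0.58) did not reach the limit.

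Of 20 growth factor genes 3 rose and 1 fell, 15% and 5% against 2.46% and 2.07% of all members. AREG and HBEGF, which bind EGFR, rose by 1.41 and 1.37, and EFNA1, a ligand of EPHA2, rose by 1.04. FGF19, an endocrine growth factor acting through FGFR4, was at 8.07 in naive, 5.12 in erAlec0, 4.77 in erCriz0 and 5.40 in erLor0 cells. It was low in all 3 resistant lines.

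**Figure D3:**
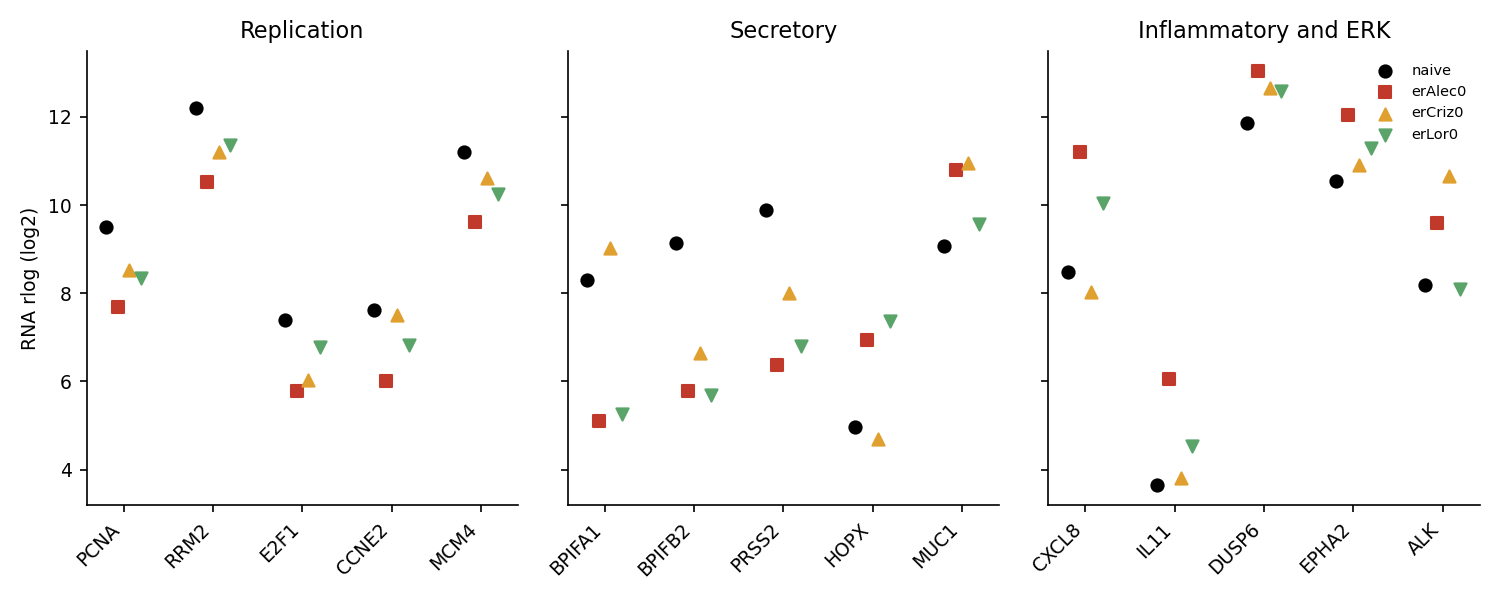
RNA rlog (log2, y axis) of 15 genes in each of the 4 lines, 1 point per library. The replication genes are lowest in erAlec0, BPIFA1 is low in erAlec0 and erLor0 (5.11 and 5.26), and CXCL8 and IL11 are highest in erAlec0.

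Inflammatory genes held several of the largest rises. Of 27 members of the list 7 rose, 25.9% against 2.46% of all members, and 0 fell, with a median of 0.26. In erCriz0 9 rose and the median was 0.45, and in erLor0 2 rose and it was 0.19. CXCL8, a neutrophil chemokine, was at 8.48 in naive, 11.21 in erAlec0, 8.04 in erCriz0 and 10.03 in erLor0 cells. IL11, a cytokine of the IL-6 family, was at 3.66, 6.05, 3.80 and 4.53 in the same order, so it lay below the minimum in naive cells. CXCL2 rose by 1.95, IL1RL1 by 1.48, OSMR, the oncostatin M receptor, by 1.42 and CXCL1 by 1.23. PTGS2, the inducible cyclooxygenase, rose by 2.28, and CD274, which encodes PD-L1, by 1.88. The NF-kB feedback genes NFKBIA and TNFAIP3 were at -0.55 and -0.41. The promoter peak of CXCL8 went the other way, at -1.31, with 0 of 6 paired peaks up. Its promoter is shown for that reason, with its single match to the AP-1 letters in capitals (plus strand, chr4:73740319-73740568).
CXCL8: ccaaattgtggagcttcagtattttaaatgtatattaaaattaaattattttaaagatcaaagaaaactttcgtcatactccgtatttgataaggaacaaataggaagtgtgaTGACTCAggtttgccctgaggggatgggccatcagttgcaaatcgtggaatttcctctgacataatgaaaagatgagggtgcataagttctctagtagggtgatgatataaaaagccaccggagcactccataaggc
Of 29 interferon-stimulated genes 4 rose, 13.8% against 2.46% of all members, and 0 fell. The median was -0.07, against 0.89 in erCriz0, where 13 rose. IFI16, a DNA sensor, rose by 1.79 in erAlec0, from 4.44 to 6.23, and stood at 9.46 in erCriz0.

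All 12 S100 members were above naive and 5 rose, with a median of 0.95. After quantile normalization 3 of the 5 did, with S100A16 at 0.96 and S100A10 at 0.70. S100A6 went from 12.30 to 13.62 and S100A16 from 13.91 to 15.20, and their promoter peaks were at -0.47 and 0.06. Most S100 genes lie in the epidermal differentiation cluster of chromosome 1, and the bin from 150 to 155 Mb held 117 member genes with a median RNA change of 0.40, of which 19 were up and 1 down. The 511 peaks there had a median of -0.02. The part of this regional value in the rise of the S100 genes was not tested.

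Keratins, adhesion and matrix genes held further rises. Of 12 keratins 4 rose and 1 fell, 33.3% and 8.33% against 2.46% and 2.07% of all members. Of 15 integrins 4 rose, 26.7%, and 0 fell. KRT17, a keratin of basal and stressed epithelium, was at 8.29 in naive, 10.48 in erAlec0, 7.98 in erCriz0 and 9.68 in erLor0 cells, and KRT16 rose by 1.72. KRT16 and KRT17 have near-identical pseudogene copies on 17p, where RNA was higher over a whole stretch, so their values are uncertain. KRT4 fell by 1.42 although all 10 of its paired peaks were up. Of 23 mesenchymal members 3 rose and 0 fell, with a median of 0.70. VIM, the intermediate filament of mesenchymal cells, rose by 1.46, S100A4 by 1.22 and LOXL2, a collagen crosslinking enzyme, by 1.16. In erCriz0 9 of these genes rose and the median was 0.69, and in erLor0 4 rose and it was 0.47. VIM was at 7.20 in erAlec0, 8.13 in erCriz0 and 6.27 in erLor0 cells. LOXL2 was at 6.82, 7.67 and 6.71 in the same order, and S100A4 at 7.11, 5.45 and 7.38. The change in erAlec0 was -0.45 for SNAI1 and -0.30 for CDH2. The epithelial junction genes had a median change of 0.20 in erAlec0, with 3 that rose, CDH3, CLDN1 and DSP, and 0 that fell. After quantile normalization DSP was at 0.92, below the limit. Integrins ITGB2 (1.69), ITGA5 (1.02), ITGA3 (1.01) and ITGB4 (1.01) rose, and after quantile normalization 2 of the 4 did, with ITGA3 at 0.88 and ITGB4 at 0.92. The collagenase MMP1 rose by 2.94, from 6.14 to 9.08, with 8.56 in erCriz0 and 9.13 in erLor0.

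Type IV collagen rose in both readouts. COL4A1 and COL4A2, the main chains of basement membrane collagen, lie head to head on chromosome 13 (chr13:110148963-110307157 and chr13:110305812-110513209) and share a promoter region. COL4A2 was at 8.0 in naive, 9.49 in erAlec0, 7.93 in erCriz0 and 8.63 in erLor0 cells, and COL4A1 at 6.40, 7.88, 6.17 and 6.85. The promoter peak was at 2.20 for both, and 11 of 30 peaks paired with COL4A2 were up and 0 down. Of 15 laminin and collagen genes with a promoter peak 8 were at 1 or more and 0 at -1 or less, with a median of 1.04. The peak shared by COL4A1 and COL4A2 is counted for both. The list's longest promoter peaks had a median of 1640 bases, and of all genes with one of 1000 to 2000 bases 8.77% were at 1 or more. In RNA 4 of 21 members rose and the median was 0.53.

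The NRF2 and AKR1 list holds antioxidant and carbonyl-reducing enzymes. Of 23 members 5 fell and 0 rose, or 8 fell after quantile normalization, 6 were above naive and the median was -0.54. In erCriz0 it was -0.23 and in erLor0 0.09. AKR1C2 was at 7.92 in naive, 4.96 in erAlec0, 5.09 in erCriz0 and 6.93 in erLor0 cells. AKR1C3 (-1.86), AKR1C1 (-1.56), NQO1 (-1.32) and GPX2 (-1.15) fell too, and reads of the AKR1C genes can be hard to assign because the genes are close copies. The promoter change of AKR1C2 was 1.32, with 5 of 6 paired peaks up. No aldehyde dehydrogenase among 15, drug efflux transporter among 12 or apoptosis regulator among 26 passed the limit, with BCL2L11, the BH3-only protein BIM, at -0.89 and BCL2 at -0.90.

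Of 348 transcription factors that were members, 16 rose and 10 fell, 4.60% and 2.87% against 2.46% and 2.07% of all members. Among the factors that rose most were FOXB1 (2.56), FOXQ1 (2.05), HOPX (1.99), KLF2 (1.65) and CREB5 (1.61), followed by FOXP2 (1.51), KLF6 (1.46), PAX5 (1.41), ONECUT3 (1.13), ID4 (1.07) and MAFK (1.05). The largest fall was in MYB, from 7.64 to 5.25, with 6.87 in erCriz0 and 6.70 in erLor0. E2F7 (-1.76), E2F2 (-1.67), E2F1 (-1.61), E2F8 (-1.20) and MYBL2 (-1.12) made 5 of the others, all of them cell cycle factors. The promoter changes were 1.17 at MYB, 1.37 at E2F7, 1.95 at E2F8, 1.08 at MYBL2, 0.43 at E2F1 and -0.41 at E2F2. GATA3 fell by 1.37 with a promoter change of -0.75, and TP73 (-1.36) and EYA2 (-1.20) also fell, with promoter changes of 0.74 and 1.56.

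The largest changes also included the following genes, most of them in no list. PAEP, a secreted lipocalin, was at 7.03 in naive, 10.39 in erAlec0, 10.53 in erCriz0 and 8.38 in erLor0 cells. TCHHL1, a gene of the S100-fused family at 1q21, was at 4.08 in naive and 7.24 in erAlec0 cells but at 4.14 and 4.28 in the other lines, and its promoter peak was at 2.67 with 5 of 6 paired peaks up. TCIM rose by 3.14, the WNT inhibitor DKK1 by 2.61, PRODH, proline dehydrogenase, by 2.47, UPP1, uridine phosphorylase, by 2.32, VGF by 2.25, MSN, the membrane linker moesin, by 2.23 and C2CD4A by 2.22. Among falls, XAGE1B, a cancer-testis gene with copies on chromosome X, went from 6.40 to 3.25, and IGFBP3, a carrier of insulin-like growth factors, from 10.03 to 7.67. SULF2 (-2.24), CDH6 (-2.18), ADAM23 (-2.15) and ANK2 (-2.11) complete the 15 largest. Of the 15 largest rises, 1 is a pseudoautosomal gene with an identical second copy, and it is not described.

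Of 21 YAP and TEAD targets 5 rose, among them DLC1 (1.35), MYOF (1.14) and the matricellular CCN1 (1.11), and 1 fell, IGFBP3. That is 23.8% and 4.76%, against 2.46% and 2.07% of all members. Of 27 TGF-beta pathway genes LTBP1 rose by 1.04 and BMP7 fell by 1.40, 3.70% each way against 2.46% and 2.07% of all members. Of the 27 promoters 9 were at 1 or more, 33.3% against 6.17% of all genes with a promoter peak. The median promoter change was 0.82, against 0.25. Of 20 matrix proteases and inhibitors 3 rose, MMP1, MMP10 (1.85) and the plasminogen activator PLAT (2.07). In the Notch pathway 1 of 19 genes rose, the receptor NOTCH3 by 1.07, in the WNT pathway 1 of 25, DKK1, and among semaphorins and their receptors 1 of 18, SEMA3B by 1.97. Of 32 ATF4 amino acid and stress genes 2 rose, NUPR1 (1.42) and SLC38A2 (0.83 after quantile normalization), and PSAT1, of serine synthesis, fell by 1.11. Of 33 genes of cholesterol and fatty acid synthesis 1 rose and 1 fell, the desaturase FADS2 by 1.11. Of 33 glycolysis and hypoxia genes 1 rose, the glucose transporter SLC2A3 by 2.19, and of 17 antigen presentation genes 1 rose, CD274. The lists of this paragraph with 1 gene up had 3.03% to 5.88% up, against 2.46% of all members, so each share rests on 1 gene. None of 25 histone acetylation genes passed the limit, with HDAC7 at 0.75 and CREBBP at 0.57.

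In H3K27ac, 13367 of 86432 member peaks were up, which is 15.5%, and 8634 were down, which is 9.99%. The median change was 0.05, and the middle 95% ran from -1.49 to 2.07. Of 18872 promoter peaks 10.4% were up and 4.21% down, against 16.9% and 11.6% of the 67560 other peaks.

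The largest rises clustered in a few places. Of the 8 largest, 4 lay on chromosome 11 in ENSG00000231698, a gene near NTM. The peak at chr11:131342562-131346310, in an intron of that gene, was at 3.43 in naive, 8.24 in erAlec0, 3.69 in erCriz0 and 5.18 in erLor0 cells. A 13188-base peak over its start, chr11:131242134-131255321, went from 5.61 to 10.02, with 5.62 and 6.22 in the other lines. The others included a CSMD1 intron, where the peak was at 2.505 in naive, 6.59 in erAlec0, 2.99 in erCriz0 and 2.79 in erLor0 cells, an intron of VEPH1 (chr3:157507389-157513077, 5.07 to 9.02, with 5.07 and 6.27) and a site 12831 bases from TMEM68. The largest fall, chr12:130383765-130386554, was 9579 bases from RIMBP2, the nearest coding gene, and went from 8.24 to 4.72, with 6.22 in erCriz0 and 5.33 in erLor0. A second fall 4640 bases from RIMBP2 (-3.17) and one in an intron of FAM53A (-3.02) were also among the 8 largest. The central 250 bases of the largest rise (chr11:131344311-131344560) and fall (chr12:130385035-130385284) are given, read from hg38 on the plus strand. Neither held the E2F or AP-1 letters.
Largest rise: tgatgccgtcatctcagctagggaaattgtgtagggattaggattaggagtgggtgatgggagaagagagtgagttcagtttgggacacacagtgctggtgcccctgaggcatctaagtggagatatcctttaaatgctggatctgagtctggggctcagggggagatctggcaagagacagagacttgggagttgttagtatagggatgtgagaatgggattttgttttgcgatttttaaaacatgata
Largest fall: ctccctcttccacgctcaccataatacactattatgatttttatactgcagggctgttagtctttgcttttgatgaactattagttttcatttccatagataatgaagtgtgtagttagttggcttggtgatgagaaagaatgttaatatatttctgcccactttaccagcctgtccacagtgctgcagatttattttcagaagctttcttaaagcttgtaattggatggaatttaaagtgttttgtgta

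Letters of 23 motifs were searched on both strands in the central 300 bases of each member peak. The AP-1 letters stood in 8.95% of up peaks (95% exact binomial interval 8.48 to 9.45) and in 12.6% of down peaks (11.95 to 13.37), against 9.88% of all member peaks. These intervals cover counting error only. With GC content held between 40% and 50%, the shares were 10.6% and 14.9%. The CEBP letters TTGCNNAA stood in 14.9% of up and 13.8% of down peaks, against 12.3% of all, and the NKX2 letters CACTTGA in 8.54% and 6.996%, against 7.32%. The KLF and SP letters GGGCGGG stood in 4.91% and 2.39%, against 7.35%, and in 1.23% and 0.863% with GC held at 40% to 50%. Median GC was 46.0% in up, 45.7% in down and 50% in the remaining peaks.

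Over all genes, the RNA change and the promoter peak change were nearly unrelated in this comparison. Every change here subtracts the naive columns, for which the label check was weak. The median promoter change was 0.41 at 239 up genes, 0.32 at 226 down genes and 0.25 at the 10788 genes between. Promoter peaks at 1 or more were more frequent at up genes, 20.9%, than at down genes, 11.1%, and at both than at the genes between, 5.74%. Promoter peaks at -1 or less were likewise at 5.86% of up genes, 3.54% of down genes and 0.87% of the genes between. Across 11253 genes, which share both libraries, Spearman's rho was 0.04, and across the 32 genes with an RNA change of 2 or more either way it was 0.19. Besides COL4A1, COL4A2 and TCHHL1, the up genes with the largest promoter rises were SHE (3.31), NXN (2.36), PXDC1 (2.28), CPM (2.27), AASS (2.24), GJC1 (2.20) and ID4 (2.16). At NXN, nucleoredoxin, 27 of 30 paired peaks were up. Besides BPIFB2 and BPIFA1, the down genes with the deepest promoter loss were ENSG00000271201 (-1.71), CMYA5 (-1.48), F13A1 (-1.40), RGS17 (-1.30), PSG3 (-1.22), TXNIP (-1.13, with an RNA change of -0.97 after centring), F5 (-1.03) and FAM83F (-0.98). At RGS17, a regulator of G protein signalling, 20 of 27 paired peaks were down.

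**Figure D4:**
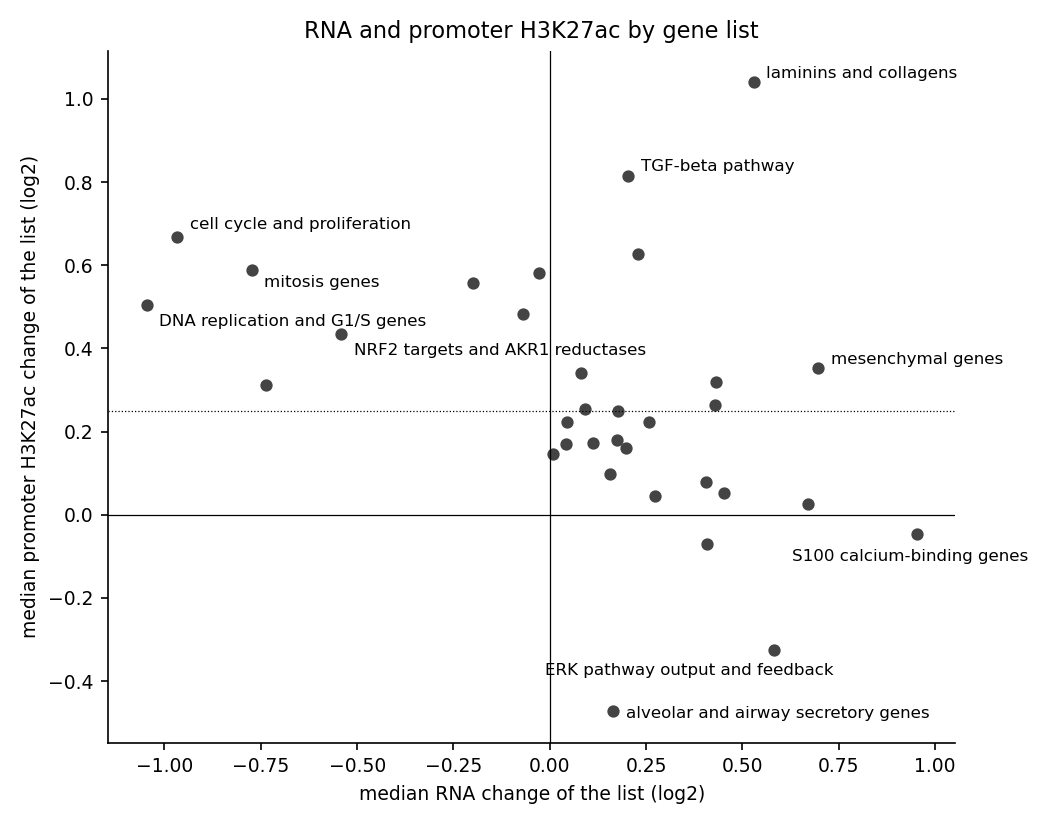
Median RNA change (x axis, log2) and median promoter H3K27ac change (y axis, log2) of each gene list with at least 9 promoter peaks, with the median promoter change of all genes as a dotted line at 0.25. The cell cycle lists lie at the upper left, ERK output at the lower right, and laminins and collagens at the upper right with 0.53 and 1.04.

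Some changes were regional. Of 484 bins of 5 Mb with at least 30 peaks and 8 genes, 2 had median RNA and peak changes of 0.5 or more, both on chromosome 17, and 0 had both at -0.5 or less. From 15 to 20 Mb, 63 genes had a median RNA change of 0.90 and 456 peaks one of 0.75, and 28 of the genes were up. These bins held 32 of the 312 up genes, among them MAP2K3, NCOR1 and FLCN. From 40 to 45 Mb of chromosome 12, 103 peaks had a median of 1.59 while 10 genes had a median RNA change of 0.18. Copy number was not analysed here, and its part in these values was not tested.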

How the data were processed

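RNA-seq and H3K27ac ChIP-seq of naive H3122 and erAlec0 cells, 1 library each, were examined, with erCriz0 and erLor0 for reference. The other 4 of the 8 samples were not analysed here. For RNA the authors used HISAT2 on hg38 and HTSeq-count. ChIP-seq reads were aligned with BWA, peaks were called with MACS2 and merged over samples, and reads were counted with featureCounts. Per the submitters' processing notes bcl2fastq was also used, and tool versions are not given in the sources used here. The authors deposited rlog values, on a log2 scale, from DESeq2 over the 4 libraries, with 1 row per peak and gene lying within 20 kb of each other. The rlog step shrinks differences of features with few reads, and read totals cannot be recovered from it, so depth is unknown. The authors' columns of correlations, p-values, adjusted p-values and means over lines hold their own comparison and were not used. The number of unmapped columns of per-sample values was 0.

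Changes were differences of rlog values, with 1 row per gene or peak. The members, gene lists and motifs were chosen with earlier results of these data known. Genes named in the text are the 15 largest rises and falls, the 3 largest changes per list, all genes past the limit in the receptor, mesenchymal and secretory lists, the 12 transcription factors of largest rise and fall, ALK, EML4, ERBB2 and EGFR, the 8 peaks of largest rise and fall, and the 10 up and 10 down genes whose promoter peaks moved most in the same direction. Other genes were named after their values were seen. Some genes of this rule are not reported here. Of 43869 gene identifiers 43669 matched GENCODE release 44 on hg38, which gave gene starts and peak annotation. Lists fixed first numbered 33, and 3 were added.

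Alternatives were a limit of log2 of 1.5 or of 2, centring, quantile normalization, other filters on low values, other peak pairings and other motif windows. The scripts were tested on simulated data and ran in Python 3.11.15 with pandas 2.3.3, pysam 0.24.0, matplotlib 3.10.9, scipy 1.17.1 and numpy 2.4.6.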

Additional observations from a re-analysis of the deposited data

How the results depend on the processing

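The limit moved the counts most. At log2 of 1.5, 1008 genes were up and 1016 down, and 23426 peaks were up and 20086 down, and at a limit of 2 these were 23, 20, 2485 and 357. Centring, quantile normalization, no filter, a filter on the mean of the libraries, and leaving out the chromosome 17 bins left these counts within 1.5 times, as did keeping protein-coding genes alone for the RNA counts. The last 2 settings, the split by decimals and the subtraction below were chosen after seeing the data. The median promoter change at up genes, 0.41, was 0.0819 over all paired peaks, 0.42 with the highest peak, 0.32 after centring, 0.45 and 0.39 in the parts of the table written to at most 6 decimals and to more, and 0.16 less the median of genes between -1 and 1. At down genes, 0.32, the values were 0.10, 0.31, 0.22, 0.27, 0.36 and 0.0741 in that order. The AP-1 share was 14.5% of up and 20.2% of down peaks in 500 bases, 9.48% of up peaks away from gene starts, and 10.6% and 14.9% at 40 to 50% GC, where down peaks stayed higher. The causes were not tested. Of 33 list medians 2 changed sign under some setting, those of WNT and of glycolysis genes, both near 0, and of the named genes 0 did. Of 180 listed or named genes past the limit, 4 were below it after centring (CDT1, DLGAP5, TPX2 and TXNIP) and 7 after quantile normalization (CDT1, DSP, ITGA3, ITGB4, S100A10, S100A16 and SLC38A2). Quantile normalization moved a list median by at most 0.23, in the S100 genes. No paired analysis was possible because each line has 1 library. No replicate could be left out for the same reason.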
